A study of Rattus norvegicus with 20 samples.

Results

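The regions described here are CpG islands of the rat autosomes whose methylation signal lay between the low and the high level of the genome in normal mammary gland. A region was a run of at least 3 array probes starting at most 500 bases apart, and its value was the mean ratio of methyl-CpG-enriched DNA to input DNA. On each array this ratio, unlogged, was placed on a scale called linear position, with 0 at the density peak of all regions and 1 at the density peak of the top 15% of ratios. The partly methylated regions were the autosomal regions with a linear position from 0.2 to 0.5 in each of the 4 normal glands, and 123 of 13046 autosomal regions (0.943%) met this rule. A further 1 region in the band lay on unplaced sequence and was not counted. The values of the normal glands chose the regions, so those values are a description here and not a result.

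CpG islands are stretches rich in the CpG dinucleotide, many of them at gene starts, and most are free of methylation in normal tissue. An intermediate signal over an island can come from a mixture of cells, from methylation of some alleles and not others, or from methylation of a stretch of the island. Known cases of methylation on some alleles are imprinted genes, methylated on the maternal or the paternal copy, and the X chromosome of females, where islands of the inactive X are methylated and those of the active X mostly are not. A pull-down with a methyl-CpG-binding domain protein enriches methylated DNA fragments in proportion to how many methylated CpG they carry, so its signal is no direct fraction of methylated molecules. Tumours commonly gain methylation at some islands and lose it elsewhere.

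The DNA came from female rats of an F1 cross between Sprague-Dawley and Copenhagen, and each sample had 1 array: 4 were normal mammary glands and 16 were carcinomas of that gland. The labels describe rats left untreated or exposed at 7 weeks of age to 4 Gy of whole-body 137Cs gamma rays at 0.5 Gy per minute, and the carcinomas are called radiation-induced. The sources used here do not give the ages of the rats at sampling or say if the rats with normal glands had been irradiated, and tissue and irradiation cannot be told apart. For carcinomas 7 and 8 the labels and the scanner file carry different tumour codes, so which tumour each is remains uncertain while the group does not. The tissues were taken whole, and a change in the share of a cell type cannot be told apart from a change in methylation within cells. The files give no gene names for the probes and no annotation of their build, rn4, was used here, so regions are given by rn4 coordinates and by short names.

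The arrays differed in the range of their ratios. The high peak stood at a centred log2 ratio between 3.91 and 5.84 in the normal glands and between 1.99 and 3.61 in the carcinomas, with no overlap. A region at a fixed place between the peaks therefore has a lower log2 ratio in a carcinoma, and for this reason results are given in linear position, in log2 ratio and as the percentile among all regions of the same array. Of the probes in the 123 regions, between 93.3% and 100% per array had enriched signal well above background. Their input signal stood above the mean of the autosomes by 0.02 to 0.18 on the log2 scale on each array. Single regions departed from this, with input lower by over 0.5 than the mean of the normal glands in at least 1 carcinoma in 37 regions and higher by over 0.5 in 26. The number of arrays limits the precision, above all the 4 normal glands.

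In the normal glands the 123 regions had median linear positions of 0.293, 0.395, 0.289 and 0.349 in glands 1 to 4. These medians were lowest in glands 1 and 3 and highest in gland 2. The members nearest the lower limit had a lowest gland at 0.2002, 0.2014 and 0.2025, and the nearest autosomal regions left out had 0.199, 0.197 and 0.197. At the upper limit the nearest members had a highest gland at 0.4996, 0.499 and 0.498, and the nearest regions left out had 0.502, 0.502 and 0.503. The limits therefore cut through a continuum of values. When the band was set from the other 3 glands, 123 of 146 regions lay within it in gland 1, 123 of 172 in gland 2, 123 of 156 in gland 3 and 123 of 228 in gland 4. Membership was thus shared by 84.2% of the regions tested in gland 1 and by 53.9% in gland 4. In gland 4 the regions outside the band fell on both sides, 44 under and 61 over.

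In the carcinomas the regions spread far beyond the band. Over the 16 carcinomas, 65.3% of the 1968 values lay over 0.5, 26.1% lay within the band and 8.59% lay under 0.2. By its mean over the carcinomas, a region was over 0.5 in 86 of 123 cases, within the band in 33 and under 0.2 in 4. Of the 123 regions, 90 were over 0.5 in at least 8 carcinomas, and 19 of these were over 0.5 in 16 of 16. At the other end, 9 regions were under 0.2 in at least 8 carcinomas, and 1 of them in 16 of 16. No region stayed within the band in all 16 carcinomas, and 44 regions were under 0.2 in at least 1 carcinoma and over 0.5 in at least 1 other. These classes are those of linear position; in log2 ratio the mean of the carcinomas was lower than that of the normal glands in 123 of 123 regions.

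**Figure D1:**
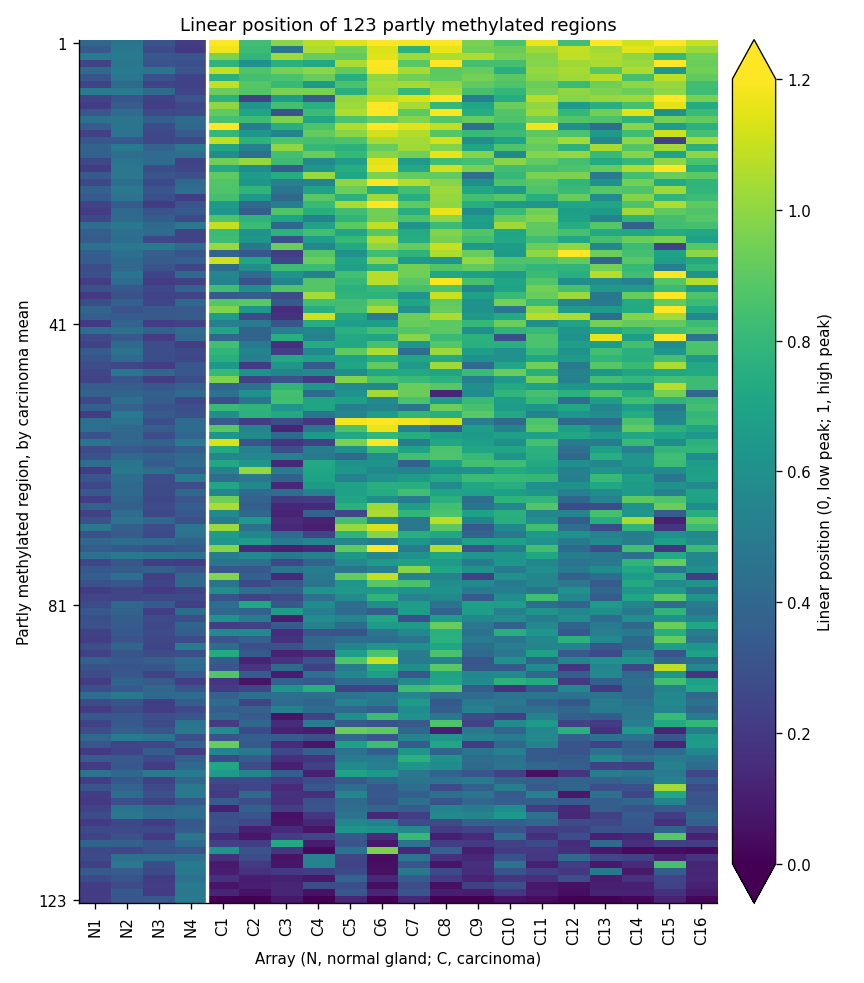
Linear position (colour) of the 123 partly methylated regions (rows, sorted by carcinoma mean) on the 4 normal gland arrays (N) and 16 carcinoma arrays (C). The normal columns are uniform by the choice of regions, 86 regions have a carcinoma mean over 0.5 and 4 have one under 0.2; in log2 ratio all 123 have a lower carcinoma mean.

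The share of regions over 0.5 differed widely between carcinomas. It was lowest in carcinoma 3, with 43 of 123 regions, followed by carcinoma 2 with 51 and carcinoma 4 with 68. It was highest in carcinoma 8, with 96 regions, and carcinomas 6, 15, 5, 7 and 11 had between 92 and 95. Carcinoma 3 was also the array with the most regions under 0.2, at 39, against 20 in carcinoma 4 and between 1 and 11 in the others. Carcinoma 2 differed from carcinoma 3 in keeping 61 regions within the band, the largest number, and in having 11 under 0.2. The share of low islands (the 10892 autosomal regions under 0.2 in each normal gland) that passed 0.5 was 0.119% in carcinoma 2 and 0.597% in carcinoma 3, against 9.71% in carcinoma 8 and 11.0% in carcinoma 15. The part of that general difference between tumours in the counts of partly methylated regions was not tested.

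Normal glands that took no part in the choice gave a background for these shares. Of the regions chosen in glands 2 to 4, 2.74% were over 0.5 in gland 1, and between 34.2% and 76.0% were so in the carcinomas. With gland 2 left out of the choice the share was 27.3% in gland 2 and from 41.9% to 82.0% in the carcinomas. With gland 3 left out it was 0.641% in gland 3 and from 30.8% to 75% in the carcinomas. With gland 4 left out it was 26.8% in gland 4 and from 29.4% to 78.1% in the carcinomas. In each of the 4 cases, 16 of 16 carcinomas had a larger share over 0.5 than the gland left out, although in the last case the lowest carcinoma stood close to it.

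**Figure D2:**
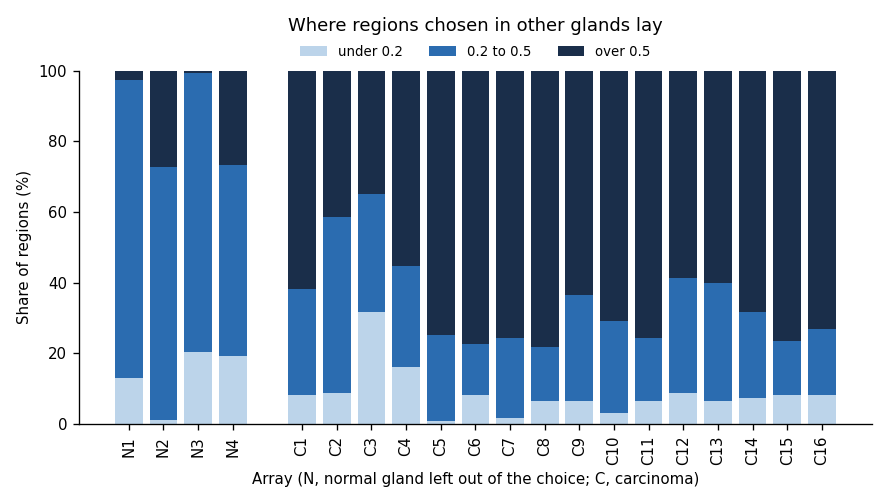
Share (%) of regions with a linear position under 0.2, from 0.2 to 0.5 and over 0.5; each normal gland (N) is shown for the regions chosen in the other 3 glands, and each carcinoma (C) for the 123 regions. The share over 0.5 runs from 0.641% to 27.3% in the glands left out and from 35.0% to 78.0% in the carcinomas, over differing sets of regions. Over the same set, that chosen without gland 4, it was 26.8% in gland 4 and 29.4% in the lowest carcinoma. In log2 ratio all 123 regions have a lower carcinoma mean.

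The X chromosome gave a comparison within each array whose order does not depend on the scale, although it does depend on the processing. By the same band, 63 of 338 X regions (18.6%) were partly methylated in the 4 normal glands. The median linear position of these X regions was 0.384, 0.453, 0.417 and 0.396 in glands 1 to 4, above that of the autosomal regions in 4 of 4 glands. In the carcinomas the X median stayed within 0.441 to 0.498, with a median of 0.477. The median of the 123 autosomal regions was 0.616, 0.439, 0.345 and 0.526 in carcinomas 1 to 4, which include the lowest values. It was 0.684, 0.775, 0.668 and 0.765 in carcinomas 5 to 8, which include the highest. It was 0.591, 0.654, 0.708 and 0.55 in carcinomas 9 to 12 and 0.559, 0.679, 0.717 and 0.686 in carcinomas 13 to 16. The autosomal median thus lay above the X median in 14 of 16 carcinomas, the exceptions being carcinomas 2 and 3, and below it in 4 of 4 glands. After loess within arrays, which left 6 X regions in the band, it lay above the X median in 16 of 16 carcinomas and in 4 of 4 glands as well, and with the median of probes as the region value in 15 of 16 carcinomas and 1 of 4 glands.

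Linear position, log2 ratio and percentile rank the regions of an array alike, so this order is fixed across the 3 scales and they add sizes alone. In log2 ratio the autosomal median minus the X median was -0.30 ± 0.16 (SD, n = 4) for normal glands, against 0.30 ± 0.23 (SD, n = 16) for carcinomas. In percentile points it was -0.907 ± 0.433 (SD, n = 4) for normal glands, against 4.38 ± 2.90 (SD, n = 16) for carcinomas. Which of the medians moved does depend on the scale. In linear position the autosomal median went from 0.331 ± 0.0506 (SD, n = 4) to 0.622 ± 0.117 (SD, n = 16) and the X median from 0.413 ± 0.0304 (SD, n = 4) to 0.474 ± 0.0166 (SD, n = 16). In percentile the autosomal median went from 85.6 ± 0.0585 (SD, n = 4) to 85.4 ± 1.45 (SD, n = 16), while the X median went from 86.5 ± 0.413 (SD, n = 4) to 81.0 ± 3.48 (SD, n = 16). In log2 ratio both medians were lower in carcinomas, the autosomal from 3.16 to 2.12 and the X from 3.46 to 1.82. A percentile also falls where other regions of the array pass a region. The X median percentile was lowest in carcinomas 15 and 8, at 74.4 and 75.4, where 11.0% and 9.71% of low islands passed 0.5. It was highest in carcinomas 3 and 2, at 86.2 and 85.9, where 0.597% and 0.119% did. The part of this in the percentile differences was not tested.

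The same order was found where the glands that chose the regions were kept apart from those compared. Glands 2 and 3, which shared a slide, chose 286 autosomal and 78 X regions, and in glands 1 and 4 the autosomal median then lay below the X median by a linear position difference of -0.0997 and -0.0521. In the carcinomas this difference ran from -0.130 to 0.307, with 14 of 16 above 0. Glands 1 and 4 in turn chose 226 autosomal and 102 X regions, with differences of -0.0463 in gland 2, -0.130 in gland 3, and from -0.0673 to 0.303 in the carcinomas, 15 of 16 above 0. By scan day, the autosomal median of the 123 regions was above the X median in 1 of 2 carcinomas on day 1, 6 of 6 on day 2 and 7 of 8 on day 3, and in none of the 2 normal glands on day 2 or the 2 on day 3. The input signal of X regions relative to the autosomes was -0.78 on the log2 scale in carcinoma 8 and between -0.33 and -0.10 in the other carcinomas, against -0.24 to -0.16 in normal glands. Without carcinoma 8, 13 of 15 carcinomas had the autosomal median above the X median.

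**Figure D3:**
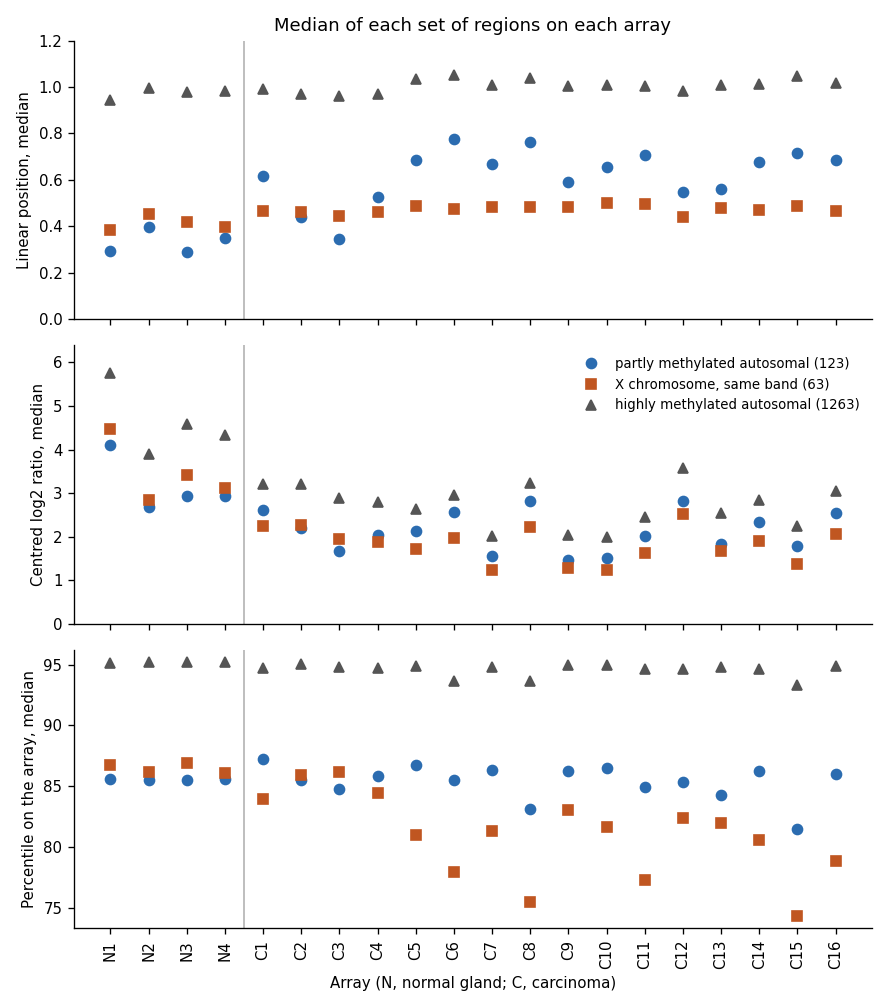
Median linear position, centred log2 ratio and percentile (panels from top to bottom) on each of the 20 arrays for the 123 partly methylated autosomal regions (circles), 63 X regions of the same band (squares) and 1263 autosomal regions over 0.5 in each normal gland (triangles). Circles lie below squares in 4 of 4 normal glands and above them in 14 of 16 carcinomas, an order that the scale cannot change, while the direction of the circles between groups differs between panels.

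The contrast of carcinoma and normal gland over all 13556 regions placed these regions in opposite directions on different scales. In linear position, 68 of 123 were higher in carcinomas at a limma adjusted p under 0.05 and 2 were lower, beside 17.3% higher and 4.34% lower over all regions. In log2 ratio the counts were 0 higher and 90 lower, beside 11.6% higher and 23.7% lower over all regions, and at an unadjusted p under 0.05 the counts were 0 and 108. After loess within arrays the calls turned to 29 higher and 34 lower in linear position and to 34 higher and 14 lower in log2 ratio. In percentile, 10 were higher and 17 were lower, beside 8.68% and 11.0%, so these shares stood near the background. The median difference over the 123 regions was 0.281 in linear position, -1.10 in log2 ratio and -0.652 percentile points, beside 0.0133, 0.02 and -0.427 over all regions. Because the normal values that chose the regions enter this contrast, the counts describe the regions and support nothing. Within scan day 2 the linear position calls were 29 higher and 1 lower, and within scan day 3 they were 24 and 1. Without normal gland 1 the log2 ratio calls fell to 51 lower. No share over all regions was set beside the unadjusted counts or those after loess, within a scan day or without a gland.

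Regions chosen and compared in separate glands gave counts that are free of the choice. Of the 286 regions chosen by glands 2 and 3, 90 (31.5%) were higher in carcinomas than in glands 1 and 4 in linear position at a limma adjusted p under 0.05, beside 5.14% of all regions, and 9 (3.15%) were lower, beside 1.2%. Of the 226 regions chosen by glands 1 and 4, 39 (17.3%) were higher than in glands 2 and 3, beside 1.58% of all regions, and 1 was lower, beside 0.31%. In log2 ratio the same sets had 0 higher and 175 lower, beside 6.05% and 20.8%, and 0 higher and 73 lower, beside 2.39% and 17%, with 0 higher at an unadjusted p under 0.05 in both. The linear position counts of higher regions rest on both glands compared: without gland 1 or gland 4 the 90 became 24 or 19, and without gland 2 or gland 3 the 39 became 13 or 1. Without carcinoma 3 the 39 became 61. Where 1 gland was left, it is assumed to vary as the carcinomas do. The counts with an array left out have no share over all regions beside them. Since no label ties a sample to an animal, these p-values measure the spread between samples.

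Some regions kept their direction on several scales, the rises not in log2 ratio. Log position is the log2 ratio placed between the same peaks. In linear position, percentile and log position alike, 10 of 123 regions (8.13%) were called higher, beside 5.24% of all regions. In log2 ratio these 10 had lower carcinoma means, as did 123 of 123 regions. Log position alone gave 40 higher and 9 lower, beside 14.2% and 4.23%. Full separation of the groups was also counted. The normal values that chose the regions enter the calls and the separation counts given here, so both are a description. The choice held each normal gland within the band, a limit that the regions at large did not have. Separation was not counted in glands kept apart from the choice. In linear position 29 regions had 16 of 16 carcinomas above each normal gland, beside 9.17% of all regions. In percentile 7 had it, beside 2.24%. In log2 ratio 0 regions had it, beside 1.76%. Of the falls, 2 regions were called lower in linear position, log2 ratio, log position and percentile alike, beside 0.775% of all regions. Full separation below the normal glands was found in 1 region in linear position, beside 2.17%, in 10 in percentile, beside 4.32%, and in 23 in log2 ratio, beside 15.6%.

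The 5 regions with the largest rise in linear position among those called went from the lower part of the scale to the level of the highly methylated islands. Rise 1, on chromosome 9 from 74637749 to 74638445, stood at 0.41, 0.47, 0.31 and 0.22 in normal glands 1 to 4. In the carcinomas its lowest value was 0.830, its median 1.13 and its highest 1.42. Each carcinoma lay above each normal gland, and the lowest carcinomas were 2 and 12. The difference was 0.755 (SE 0.0901) in linear position, and the mean percentile went from 85.8 ± 1.40 (SD, n = 4) to 96.4 ± 3.02 (SD, n = 16). In log2 ratio the difference was -0.37 (SE 0.32), which did not pass the threshold.

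Rise 2, on chromosome 7 from 138272001 to 138272379, stood at 0.34, 0.48, 0.27 and 0.20 in the normal glands and had a lowest carcinoma at 0.472, a median of 1.03 and a highest of 1.17. Here carcinoma 3 lay just below normal gland 2, and the other 15 carcinomas lay above each gland. Rise 3, on chromosome 1 from 155354575 to 155355100, stood at 0.25, 0.41, 0.24 and 0.23 in the glands and from 0.644 to 1.09 in the carcinomas, with a median of 0.916. Its lowest carcinoma was carcinoma 4, still above gland 2. Rise 4, also on chromosome 1, from 199953264 to 199953779, stood at 0.21, 0.35, 0.22 and 0.26 in the glands and from 0.625 in carcinoma 2 to 1.27 in carcinoma 6, with a median of 0.848. Rise 5, on chromosome 2 from 113269396 to 113270426, stood at 0.25, 0.47, 0.31 and 0.29 in the glands and from 0.607 in carcinoma 2 to 1.28 in carcinoma 15, with a median of 0.958. Rises 3, 4 and 5 had no overlap between the groups. In percentile, rises 1 to 5 went up by between 6.97 and 10.69 points, while their log2 ratio differences ran from -0.49 to -0.29 and did not pass the threshold.

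The falls were fewer, and fall 1 ended near the level of the low islands, with fall 2 above it. Fall 1, on chromosome 1 from 187510308 to 187510888, stood at 0.22, 0.32, 0.33 and 0.49 in normal glands 1 to 4, and in the carcinomas its lowest value was -0.0409, its median 0.0134 and its highest 0.140. The groups did not overlap, and the highest carcinomas were 5, 7 and 15. Its 7 probes had mean positions between 0.210 and 0.434 in the normal glands, so the signal was spread over the island. The difference was -0.305 (SE 0.0376) in linear position and -3.37 (SE 0.24) in log2 ratio, and the mean percentile went from 85.6 to 40.6. Fall 2, on chromosome 3 from 115044486 to 115045134, stood at 0.21, 0.34, 0.21 and 0.48 in the glands, and from 0.0469 to 0.331 in the carcinomas, with a median of 0.118 and a mean percentile of 67.4. Of the carcinomas 14 lay below each gland, and carcinomas 5 and 7, at 0.33 and 0.32, lay among the glands. Its difference was -0.175 (SE 0.0502) in linear position and -2.48 (SE 0.20) in log2 ratio. The linear position call of fall 2 was lost without normal gland 2, with a difference of -0.166, and without normal gland 4, with -0.120; gland 4 held the highest normal value in both falls.

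Other regions stayed within the band in most carcinomas. The most constant was stay 2, on chromosome 14 from 103657629 to 103657755, which stood at 0.43, 0.48, 0.41 and 0.42 in the glands and at 0.454 ± 0.0470 (SD, n = 16) in the carcinomas, from 0.375 to 0.558. The groups overlapped throughout, and carcinomas 7 and 15 were just over 0.5. It has 3 probes with mean positions from 0.419 to 0.447 in the glands. From its centre to that of the nearest highly methylated region is 1447 bases. Stay 1, on chromosome 3 from 76354231 to 76355036, stood at 0.22, 0.33, 0.23 and 0.41 in the glands and was within the band in 15 carcinomas, with carcinoma 15 at 0.525. On chromosome 9 the region from 63386972 to 63390228 (stay 3) was within the band in 14 carcinomas, with a mean of 0.353 ± 0.0826 (SD, n = 16). On chromosome 12 the region from 45353684 to 45355460 (stay 4) was within it in 13, with carcinoma 15 apart at 1.03. In log2 ratio stays 1 to 4 were lower in the carcinomas by 1.37 to 1.79, and in percentile by 6.31 to 7.16 points, where stay 4 did not pass the threshold. In log position, the place between the peaks on the log2 scale, their differences ran from -0.11 to -0.04, and that of stay 2, at -0.08, passed.

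A further set of regions was high in some carcinomas and low in others. The 4 regions with the largest SD over the carcinomas had SDs from 0.317 to 0.381 in linear position. The region on chromosome 10 from 102388417 to 102389047 (vary 2) stood at 0.35, 0.33, 0.30 and 0.33 in the glands. In carcinomas 1, 5, 6, 8, 11, 14 and 16 it stood between 0.82 and 1.25, in carcinoma 10 at 0.51, and in carcinomas 2, 3, 4 and 15 between 0.10 and 0.18. The region on chromosome 19 from 25033375 to 25034399 (vary 3) stood at 0.48, 0.36, 0.29 and 0.47 in the glands. The same 8 of 8 carcinomas were over 0.5 in both regions, and the lowest values of vary 3 were those of carcinomas 4 (0.10), 3 (0.13) and 15 (0.18). Of the 8 carcinomas over 0.5 in these regions, 7 were also among the 8 over 0.5 in the region on chromosome 2 from 228448569 to 228448997 (even 2). Vary 2 and vary 3 were the most alike of 6982 pairs of these regions on different chromosomes, with a Pearson correlation of 0.965 over the 16 carcinomas against a median of 0.243 and a 95th percentile of 0.671 over the pairs. This is a description of a pair singled out after the values were seen, over arrays that all regions share.

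The region on chromosome 19 from 51113687 to 51114103 (vary 1) had carcinomas 5, 6, 7 and 8 between 1.13 and 1.32. Its values in carcinomas 1, 2, 3 and 4 lay between 0.19 and 0.34. It had a Pearson correlation of 0.743 with vary 2 over the carcinomas, above the 95th percentile of 0.671 over the pairs. Of its 9 carcinomas over 0.5, 6 were among the 8 of vary 2. The region on chromosome 16 from 18802885 to 18803894 (vary 4) was over 0.5 in 14 carcinomas, with carcinomas 2 and 4 at 0.23 and 0.35. Its median was 0.995, so it differed from the rises mainly in those low carcinomas.

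**Figure D4:**
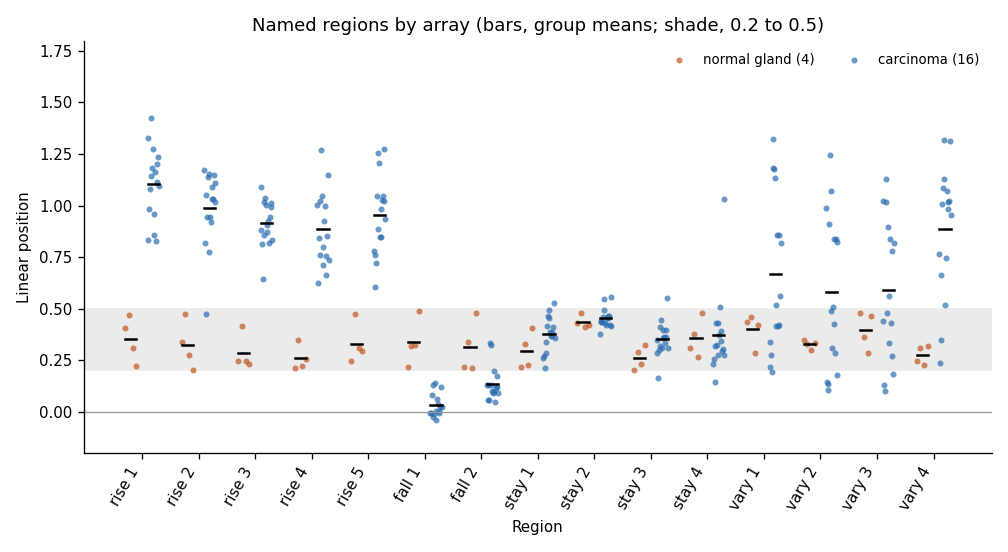
Linear position of the named regions in the 4 normal glands and 16 carcinomas (points, 1 per array; bars, group means; shade, the band from 0.2 to 0.5). Rises 1, 3, 4 and 5 and fall 1 show no overlap between groups, the stays overlap, and the carcinomas of the varying regions spread from 0.10 to 1.32; the log2 ratios of the rises were lower in carcinomas by 0.29 to 0.49.

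Spread among the carcinomas was set beside that of the other classes of regions. The median SD of linear position over the 16 carcinomas was 0.175 for the 123 regions, 0.0498 for the 63 X regions, 0.0735 for the 1263 highly methylated autosomal regions and 0.0261 for the 10892 low islands. In percentile points the median SD was 4.38, 3.70, 1.87 and 9.63 for the same sets, and in log2 ratio it was 0.54, 0.42, 0.50 and 0.27. Over the 4 normal glands, whose values chose these sets, the median SD of linear position was 0.0685, 0.0330, 0.0687 and 0.0062 in the same order. Over the carcinomas the partly methylated autosomal regions spread more than the X and the highly methylated regions on the 3 scales. In percentile they spread less than the low islands. No test of these differences was made. In log2 ratio the high peak itself had an SD of 0.493 over the 16 carcinomas, so that scale also holds the differing range of the arrays. Of the X regions 18 of 63 (28.6%) were over 0.5 in at least 8 carcinomas and 0 were under 0.2 in at least 8, against 90 of 123 (73.2%) and 9 of 123 for the autosomal regions. In the contrast of the groups 26 of 63 X regions were called higher and 0 lower in linear position, beside 17.3% and 4.34% of all regions. In log2 ratio 0 were called higher and 63 lower, beside 11.6% and 23.7%, and in percentile 0 higher and 27 lower, beside 8.68% and 11.0%.

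Within a region, an intermediate mean could be shared by its probes or could join a high stretch to a low one. Of the 123 regions, 84 had each probe between 0.1 and 0.7 in the mean of the normal glands, and 51 (41.5%) had at least 1 probe under 0.2 and at least 1 over 0.5. These classes overlap in 19 regions, and 7 regions were in neither. Among the 51, the low probes lay on one side and the high probes on the other in 44. A region with 1 low and 1 high probe has this order by necessity, and such regions were not counted apart. With stricter limits, at least 1 probe under 0.1 and at least 1 over 0.7, 15 regions were mixed. Among X regions in the band, 23 of 63 were mixed and 36 of 63 had each probe between 0.1 and 0.7. The median position of the carcinoma means was 0.687 for the 84 regions with each probe between 0.1 and 0.7. It was 0.581 for the 51 mixed regions, and the 19 regions in both classes enter both medians. The 84 had a median of 5 probes and the 51 a median of 7. Among the 123, the median probe range was 0.224 with 3 or 4 probes and 0.667 with 8 or more. The part of probe number in these medians was not tested.

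The 3 regions with the widest probe range among those of at least 5 probes had a step from high to low signal. They were picked for that range. The signal also depends on the number of CpG in a fragment, and its part in the steps was not tested. In stay 3, which spans 3257 bases with 26 probes, the first 16 probes had mean normal positions from 0.645 to 1.58, 1 probe stood at 0.293, and the last 9 lay between -0.0171 and 0.138. In the carcinomas the same 16 probes averaged 0.961, against 0.921 in the glands, and the last 9 averaged 0.00868, against 0.0315. The probes over 0.5 were 16 in both groups, and the step lay between 459 and 40 bases before the centre. In stay 4, with 16 probes, the 8 high probes averaged 1.36 in the glands and 1.10 in the carcinomas, and the 6 low probes averaged 0.0617 and 0.0839. By group means, 8 of its probes were over 0.5 in the glands and 7 in the carcinomas, where the probe at the edge of the step went from 0.538 to 0.376.

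The region on chromosome 19 from 35073509 to 35074633 (uneven 3) differed in this respect. Its 8 high probes averaged 1.01 in the glands and 1.18 in the carcinomas, and its 3 intermediate probes, which lie beyond them along the island, averaged 0.310 in the glands and 0.677 in the carcinomas. Counting by group means, 8 of its 16 probes were over 0.5 in the glands and 12 in the carcinomas. The last 3 probes, 434 to 540 bases from the centre, stayed between 0.0175 and 0.0387 in the glands and between 0.0633 and 0.0728 in the carcinomas. In this region the stretch of high linear position thus reached further along the island in the carcinomas. The log2 ratio of the whole region was lower in the carcinomas by 1.16.

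The 3 regions with the narrowest probe range had probes at like levels within each group, and of these even 3 was called higher in linear position while even 1 and even 2 were not. On chromosome 8 the region from 93020652 to 93021187 (even 1) had 7 probes from 0.275 to 0.413 in the glands and from 0.409 to 0.555 in the mean of the carcinomas, where single carcinomas ran from 0.180 to 1.09. Even 2 had 8 probes from 0.216 to 0.369 in the glands and from 0.393 to 0.639 in the carcinomas. On chromosome 7 the region from 10906865 to 10907417 (even 3) had 5 probes from 0.293 to 0.455 in the glands and from 0.661 to 0.820 in the carcinomas.

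**Figure D5:**
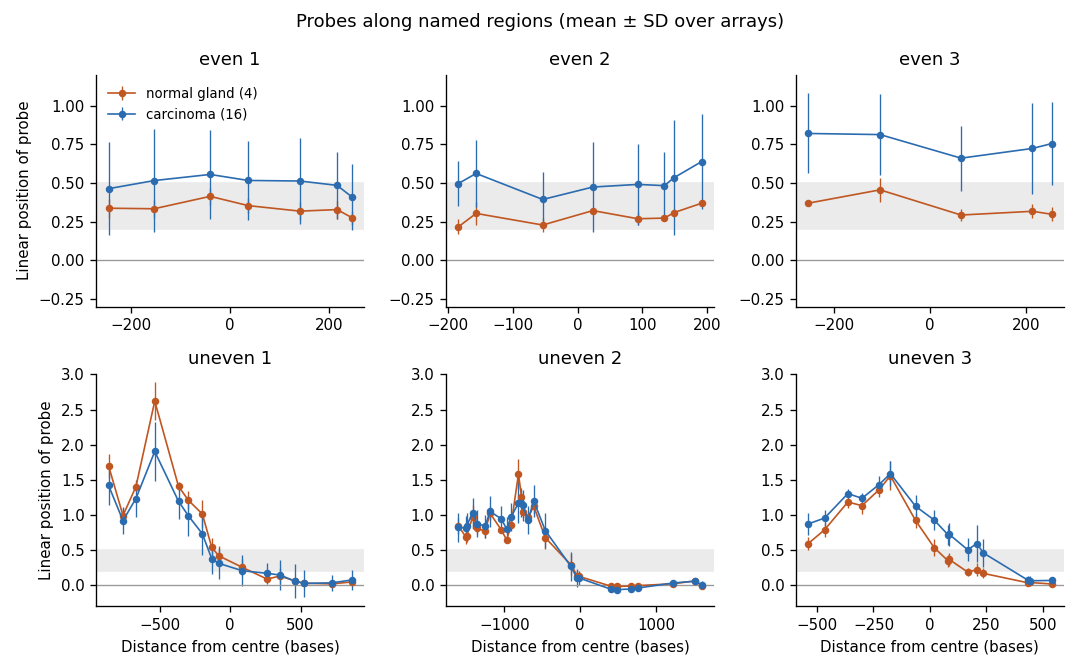
Linear position of each probe (mean and SD over 4 normal glands and over 16 carcinomas) against its distance in bases from the centre of the region, for the regions with the narrowest (even 1 to 3) and widest (uneven 1 to 3) probe range; uneven 1 is stay 4 and uneven 2 is stay 3. Uneven 1 has 8 probes over 0.5 in glands and 7 in carcinomas, uneven 2 has 16 in both, and in uneven 3 the 3 intermediate probes average 0.310 in glands and 0.677 in carcinomas.

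The 123 regions were spread over the 20 autosomes, with 18 on chromosome 1, 17 on chromosome 10 and 12 on chromosome 7. As a share of the regions measured, they ran from 0.42% on chromosome 8 to 1.63% on chromosome 12. Their size was ordinary, with a median of 6 probes and 504 bases against 6 probes and 580 bases over all autosomal regions. Another of these regions lay within 100000 bases of 23 of the 123 (18.7%), while 4.19% of all autosomal regions had such a neighbour. A highly methylated region lay within that distance of 34 (27.6%), against 23.8% of all autosomal regions and 40.4% of the highly methylated ones. No test of this clustering was made.

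The 2 densest groups lay on chromosome 7. In the first, from 141768790 to 141795769, 3 of the 6 regions measured were partly methylated and 0 were highly methylated. Their normal means were 0.369, 0.336 and 0.347, and their carcinoma means were 0.770 ± 0.226, 0.676 ± 0.141 and 0.8507 ± 0.1496 (SD, n = 16). The 3 were called higher in linear position, beside 17.3% of all regions, and 0 of them in percentile, beside 8.68%. The normal values that chose the regions enter these calls, so they are a description. The input signal of the third region was lower in the carcinomas by a mean log2 difference of -0.69, with a lowest value of -1.55, and the part of this in its ratio was not tested. Single carcinomas differed between them: carcinoma 3 stood at 0.26 in the first region and at 0.62 and 0.82 in the others. In the second group, from 10906865 to 11047134, 3 of 11 regions were partly methylated and 3 were highly methylated. Here even 3 and the region from 10917069 to 10917455 had carcinoma means of 0.7499 and 0.786, while the region from 11045348 to 11047134 stood at 0.305 ± 0.126 (SD, n = 16), against 0.25 ± 0.0586 (SD, n = 4) in the glands.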

How the data were processed

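Each of 20 arrays (4 normal glands, 16 carcinomas, grouped by the labels) set methyl-CpG-enriched DNA in Cy5 against input DNA in Cy3. Per the file headers the authors read them with Agilent Feature Extraction 10.7.3.1 with probe coordinates of rn4, and the deposited processed intensities had the background taken off and a linear dye correction. Per the file headers the scanner log ratio is a log10 value, and the value table the authors deposited holds it as log2, uncentred; it served as an alternative.

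Here the log2 ratio of processed signals was taken, 1565 control spots were left out, 187 marked values were set to missing, and 91599 of 93024 probes stayed, those whose input signal was well above background on 10 arrays or more; each array was centred on its median. Of 16436 runs of probes 13556 were regions. Peaks came from a kernel density on 2048 points. limma 3.58.1 in R 4.3.3 was fitted over all regions without covariates, with Benjamini-Hochberg adjustment and a threshold of 0.05; other steps ran in Python 3.11.15 with pandas 2.3.3, numpy 2.4.6, matplotlib 3.10.9 and scipy 1.17.1. The fits and the position scale were tested on simulated data. The regions, comparisons and naming rules were chosen with earlier results of these data known.

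Regions named were the 5 largest rises and the falls (2) among those called in linear position; the 4 within the band in the most carcinomas; the 4 with the largest SD over carcinomas; the 3 on each side of each limit; the 3 with the narrowest and the 3 with the widest probe range among those of at least 5 probes; and the 2 densest groups. None of the 10 slides held both groups; glands 2 and 3 shared a slide, as did glands 1 and 4. Alternatives covered normalization, background, source of values, probe filter, region definition, scale, threshold, weights, slide, replicate number, day of scan and arrays left out; the percentile scale, the X comparison and its settings were added after seeing the data.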

Additional observations from a re-analysis of the deposited data

Results flagged for a closer look

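Among 58 sets of 4 normal values that were searched, 3 had a gland far from the others by Dixon's criterion for 4 values, and chance marks about 5% of sets. In rise 3, normal gland 2 stood at a linear position of 0.415 while the other glands lay between 0.233 and 0.247. In rise 4, normal gland 1 stood at a log2 ratio of 3.67 while the other glands lay between 2.52 and 2.60. In even 1, normal gland 4 stood at a linear position of 0.411 while the other glands lay between 0.299 and 0.314.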

How the results depend on the processing

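Linear position is no fraction of methylated molecules, and enrichment also depends on the number of CpG in a fragment, for which no sequence was used here. With 4 normal glands, each gland weighs on the contrast. The number of regions in the band was 299 for limits of 0.15 and 0.55, 41 for 0.25 and 0.45, 483 for the mean of the glands, 333 for 3 of 4 glands, 442 after loess, and 146 to 228 with a gland left out. Mixed probes were found in 15 regions with limits of 0.1 and 0.7.

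The calls in linear position (68 higher, 2 lower) became 29 and 34 after loess, 40 higher with at least 5 probes, 40 and 9 on the log scale between the peaks, and 10 and 17 in percentile. Lower calls were 1 with normexp, 1 at an adjusted p under 0.01, 8 with array weights and 6 with the median and 95th percentile as anchors. Apart from those on the log scale and in percentile, the alternative counts here have no share over all regions beside them. Within scan day 2 the calls were 29 and 1, and within scan day 3 they were 24 and 1. With an array left out they ran from 48 to 78 higher and from 1 (without gland 2 or gland 4) to 3 lower. The log2 ratio calls (0 higher, 90 lower) became 34 and 14 after loess and 47 lower within scan day 2, and with an array left out they were 0 higher and from 51 to 102 lower. With array weights, regions chosen by glands 2 and 3 gave 174 higher and 25 lower, and those chosen by glands 1 and 4 gave 168 and 10. With an array left out these ran from 19 to 111 higher and from 0 to 11 lower, and from 1 to 61 higher and from 0 to 1 lower.

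The log2 differences of rises 1 to 5 turned to 1.16, 0.65, 0.51, 0.72 and 0.88 after loess; that of rise 1 was 0.0292 with normexp. With an array left out, rise 1 ran from -0.6585 to 0.0785 and rise 2 from -0.6721 to 0.0078, with the positive values without normal gland 1. The linear position call of fall 2 was also lost after loess, with normexp and within each scan day, that of rise 1 with normexp (1.563, limma adjusted p = 0.109) and that of rise 5 within scan day 2 (0.606, limma adjusted p = 0.0628), with the direction kept. Fall 1 kept its call after loess at -0.965. The cause of these shifts was not tested. The autosomal median lay above the X median in 13 to 16 carcinomas over 10 settings added after seeing the data; after loess 6 X regions were left in the band and the autosomal median was above X in 4 of 4 glands too, and with probe medians in 1 of 4.

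No pairing by replicate number was seen: deviations of same-numbered gland and carcinoma correlated from -0.29 to 0.34. Those of differing numbers correlated from -0.76 to 0.71, and 0 of 4 glands correlated best with their own number. The regions were chosen for a narrow range in the glands, so this check cannot exclude pairing. With the replicate number as a block, only carcinomas 1 to 4 shared a number with a gland. The fit thus compared those carcinomas alone with the 4 glands. Among them are the carcinomas with the fewest regions over 0.5, carcinomas 3, 2 and 4 with 43, 51 and 68. In this fit 0 regions were higher and 0 lower in linear position, with 46 and 10 at an unadjusted p under 0.05. In log2 ratio 78 were lower. No share over all regions was set beside these counts. Each of rises 1 to 5 and falls 1 and 2 lost its linear position call with this block, with its direction kept. The part of the smaller number of carcinomas compared in these lost calls was not tested.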
